A study of Mus musculus with 6 samples.

Results

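The sensors and transducers of endoplasmic reticulum (ER) stress are 9 genes of 25904 in a table of liver read counts: Atf6, Atf6b, Ern1, Xbp1, Eif2ak3, Creb3, Creb3l2, Creb3l3 and Nfe2l1. They were taken by gene name from a list made with earlier results of these data known, and cover the ATF6, IRE1 and PERK arms and the ER-membrane factors of the CREB3 family and NFE2L1. Polyadenylated RNA was sequenced from livers of C57BL/6J mice, 3 Ptprd+/+ (WT) and 3 Ptprd+/- (heterozygous, Het), where Ptprd encodes a receptor-type tyrosine phosphatase. The labels name no other allele and no treatment. For the kind of Ptprd allele and the sex and age of the mice, the sources used here give nothing. All 9 genes were among the 14606 that had enough reads to be tested.

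The ER folds secreted and membrane proteins, and hepatocytes secrete much of the plasma protein. When unfolded proteins build up, BiP, the ER chaperone encoded by Hspa5, leaves the luminal parts of 3 kinds of sensor. ATF6 then travels to the Golgi and is cut to a transcription factor, IRE1 (Ern1) splices the Xbp1 messenger so that it encodes the active factor XBP1s, and PERK (Eif2ak3) phosphorylates eIF2 alpha and slows translation. The CREB3 proteins and NFE2L1 are also held in the ER membrane and are released from it as transcription factors. Most of this control acts on proteins or on splicing. Read counts per gene do not show cleavage, phosphorylation or the spliced share of Xbp1, so the values below are messenger levels.

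Ptprd itself lay at 127 to 132 CPM (read counts scaled to library size) in WT and 54.1 to 78.1 CPM in Het livers, which matched the labels. Libraries held 37924266 to 72954187 counts, and the members had between 532 and 27876 counts in any library. The hepatocyte markers summed to 128000 to 153408 CPM in WT livers and 154280 to 185322 CPM in Het livers, and none of the 8 was at 0. The clock genes set Het 2 and Het 3 apart from the other libraries. Dbp, a clock output factor, had 129 and 122 CPM there against 13.5 to 29.6 CPM elsewhere, and Arntl, the core clock activator, had 2.41 and 1.92 CPM there against 11.8 to 21.4 CPM.

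Per kilobase of merged exon, which allows levels to be compared between genes, Creb3l3 was the most abundant member in WT livers at 100.4 ± 15.6 CPM per kb (SD, n = 3). Xbp1 followed at 63.1 ± 11.8, Nfe2l1 at 25.8 ± 0.997 and Creb3 at 14.4 ± 0.990 CPM per kb. Atf6 at 8.17 ± 0.784, Ern1 at 7.13 ± 0.247 and Atf6b at 6.82 ± 0.550 CPM per kb came next. Creb3l2 at 3.31 ± 0.404 and Eif2ak3 at 2.40 ± 0.177 CPM per kb were lowest. In this order each gene lay above the next in all WT libraries, except that Ern1 and Atf6b overlapped. The order depends on the length taken. With the authors' median transcript length in place of merged exons, Creb3 (52.8 CPM per kb) passed Nfe2l1 (47.7), Atf6b (47.6) passed Ern1 (29.8) and Atf6 (16.2), and Creb3l2 (6.24) came last, while Creb3l3 and Xbp1 stayed first and second. For Atf6b the lengths were 395 and 2757 bases, the largest ratio among the members.

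Between genotypes, Creb3l3, Creb3 and Atf6b were higher in every Het library than in any WT library, by 1.31-fold, 1.21-fold and 1.20-fold. Creb3l2 had the largest mean difference at 1.43-fold, but only in Het 2 and Het 3. Xbp1 was 1.27-fold and Eif2ak3 1.28-fold higher on average with overlapping groups, and Atf6, Ern1 and Nfe2l1 differed by less than 1.13-fold. By edgeR's quasi-likelihood test 0 of the 9 passed an adjusted p of 0.05, where 0% of all tested genes did, and the members' adjusted p ranged from 0.685 to 0.940. DESeq2 called 0 of the 9 and 0.452% of all tested genes. At an unadjusted p under 0.05, 3 members were higher (Creb3l3, Creb3 and Creb3l2) against 3.39% of all tested genes, and 0 were lower against 3.77%. Limma-voom had the same 3 at an unadjusted p under 0.05 and passed 0 of the 9. The median log2 fold change was 0.27 over the members and -0.0039 over all tested genes, and 7 of the 9 were higher, against 49.2% of all. The count of 3 was 1 when WT 1 or WT 2 was left out, with Creb3l2 left in the first case and Creb3l3 in the second. The share of all tested genes was not taken in those fits.

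**Figure D1:**
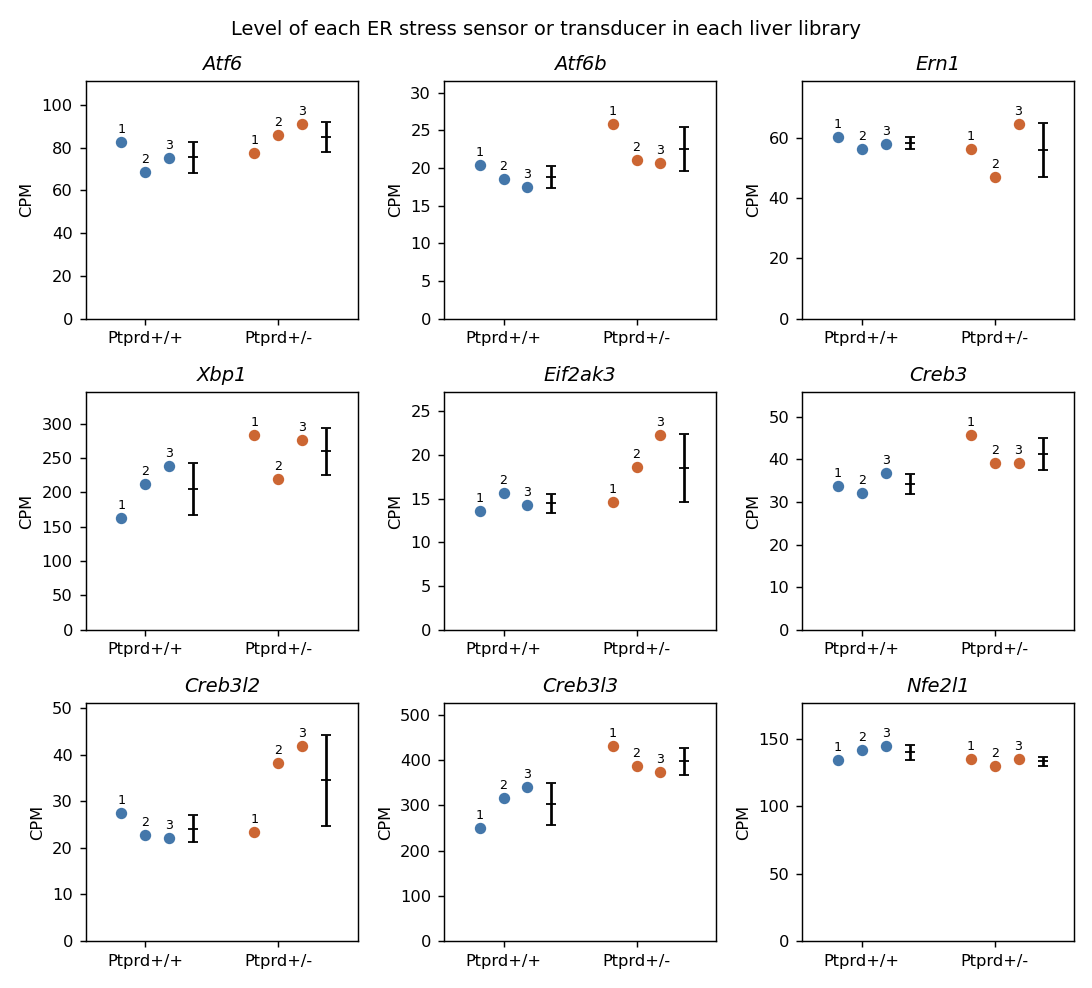
CPM (linear axis from 0) of each of the 9 genes in each liver library; points carry the replicate number, and the black mark beside each group is its mean with the SD over 3 libraries. Creb3l3, Creb3 and Atf6b have all Het points above all WT points, while for Creb3l2 and Eif2ak3 Het 1 sits among the WT points.

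The ATF6 arm has 2 related sensors, ATF6, the stronger activator, and ATF6B, a weaker factor that binds the same sites. Atf6 (ENSMUSG00000026663, chr1:170704674-170867771 of mm10 on the minus strand) had 82.8, 68.4 and 75.0 CPM in WT 1, WT 2 and WT 3, and 77.4, 86.0 and 91.1 CPM in Het 1, Het 2 and Het 3. The groups overlapped, with WT 1 above Het 1, and the log2 fold change of 0.17 (SE 0.11) had a 95% interval of -0.08 to 0.42. Atf6b (ENSMUSG00000015461, chr17:34647146-34655074 of mm10 on the plus strand) had 20.4, 18.5 and 17.4 CPM in WT livers and 25.8, 21.0 and 20.6 CPM in Het livers. Its groups were apart by a small margin, and Het 1 was the high library. The log2 fold change was 0.26 (SE 0.12, interval -0.02 to 0.54, unadjusted p 0.0688 and adjusted p 0.701 by edgeR), and 0.14 without Het 1. Over all tested genes 7.15% had all Het libraries above all WT libraries, and 3 of the 9 members did. In the other direction 6.72% of all tested genes and 0 members were apart.

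In the IRE1 arm the sensor and its substrate differed in level and in pattern. Ern1 (ENSMUSG00000020715, chr11:106394650-106487852 of mm10 on the minus strand), which encodes the IRE1 kinase and ribonuclease, had 60.3, 56.3 and 58.1 CPM in WT livers and 56.5, 47.0 and 64.7 CPM in Het livers. The WT range lay inside the Het range, and the log2 fold change was -0.06 (SE 0.13, interval -0.34 to 0.23). It became 0.06 without Het 2. Xbp1 (ENSMUSG00000020484, chr11:5520659-5525893 of mm10 on the plus strand), which encodes the transcription factor, had 163, 212 and 239 CPM in WT livers and 283, 220 and 276 CPM in Het livers. Het 1 and Het 3 were above all WT libraries and Het 2 lay among them. The log2 fold change of 0.34 (SE 0.16, interval -0.03 to 0.72) had an unadjusted p of 0.0685 and an adjusted p of 0.699 by edgeR, and the log2 fold change was 0.20 without WT 1, the lowest library. Plasma cells, which secrete antibodies, also express Xbp1 strongly. The 10 markers of plasma and B cells summed to 43.9 to 77.0 CPM in WT livers and 24.0 to 39.1 CPM in Het livers, lower in each Het library than in any WT library, with none at 0. Their part in the result was not tested, and in whole liver fewer cells of a type and less RNA per cell cannot be told apart.

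PERK is 1 of 4 kinases that act on eIF2 alpha. Its gene, Eif2ak3 (ENSMUSG00000031668, chr6:70844515-70905245 of mm10 on the plus strand), had 13.5, 15.6 and 14.3 CPM in WT livers and 14.6, 18.6 and 22.3 CPM in Het livers. Het 3 was highest and Het 1 lay within the WT range. The log2 fold change was 0.36 (SE 0.16, interval -0.01 to 0.72), with an unadjusted p of 0.0548 and an adjusted p of 0.694 by edgeR. It was 0.20 without Het 3 and 0.01 without both Het 2 and Het 3.

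Among the CREB3 family, Creb3l3 (ENSMUSG00000035041, chr10:81084324-81098874 of mm10 on the minus strand) encodes CREBH, a factor enriched in liver and intestine that acts on lipid and iron genes. It had 250.2, 317 and 341 CPM in WT livers and 431, 388 and 374 CPM in Het livers. All Het libraries were above all WT libraries, and Het 1 was the highest. The log2 fold change was 0.39 (SE 0.14, interval 0.08 to 0.71), with the smallest unadjusted p of the members at 0.0204 and an adjusted p of 0.685 by edgeR. It was 0.27 without WT 1 and 0.49 without WT 3. The summed hepatocyte markers were also higher in every Het library, and were highest in Het 1, as Creb3l3 was. The margin was narrow, with 154280 CPM in the lowest Het library and 153408 CPM in the highest WT library. Apoa1, 1 of the 8 markers, also stands in the list of CREB3L3 targets read below. It had 6690.5 to 13778 CPM in WT livers and 17902, 11596 and 9768 CPM in Het 1, Het 2 and Het 3. Of the 8 markers 6 were higher and 2 lower. At an unadjusted p under 0.05 by edgeR stood 12.5% of these markers, against 7.15% of all tested genes. Their part in the Creb3l3 difference was not tested.

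Creb3 (ENSMUSG00000028466, chr4:43562332-43567060 of mm10 on the plus strand), which encodes the family's founding member, also called Luman, had 33.8, 32.1 and 36.8 CPM in WT livers and 45.7, 39.2 and 39.0 CPM in Het livers. The groups did not overlap, with Het 1 again highest. Its log2 fold change was 0.27 (SE 0.11, interval 0.03 to 0.51), with an unadjusted p of 0.0335 and an adjusted p of 0.693 by edgeR. The ends of Creb3 overlap Tln1 by 360 bases and Gba2 by 133 bases on the opposite strand. Tln1 had a log2 fold change of 0.11 and Gba2 of 0.31, and since the sources used here give no strand setting for the counting, reads of the shared ends cannot be told apart. Creb3l2 (ENSMUSG00000038648, chr6:37327255-37442146 of mm10 on the minus strand) encodes BBF2H7, known from cartilage, where it acts on genes of the secretory pathway. It had 27.5, 22.7 and 22.2 CPM in WT livers and 23.5, 38.3 and 41.9 CPM in Het livers. Het 2 and Het 3 were well above every WT library, and Het 1 lay within the WT range. The log2 fold change of 0.52 (SE 0.21, interval 0.04 to 0.996) had an unadjusted p of 0.0358 and an adjusted p of 0.694 by edgeR. It was 0.73 without Het 1 and -0.035 without both Het 2 and Het 3.

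Nfe2l1 (ENSMUSG00000038615, chr11:96817414-96829968 of mm10 on the minus strand) encodes NRF1, which is pulled out of the ER membrane, cut and then induces proteasome genes when proteasome activity falls short. It had 134, 142 and 145 CPM in WT livers and 135, 129.7 and 135 CPM in Het livers. The groups overlapped only at WT 1, and the spread within each was small. The log2 fold change was -0.07 (SE 0.09), and its interval of -0.28 to 0.13 bounds the Het level on the lower side at 0.826 of the WT level.

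**Figure D2:**
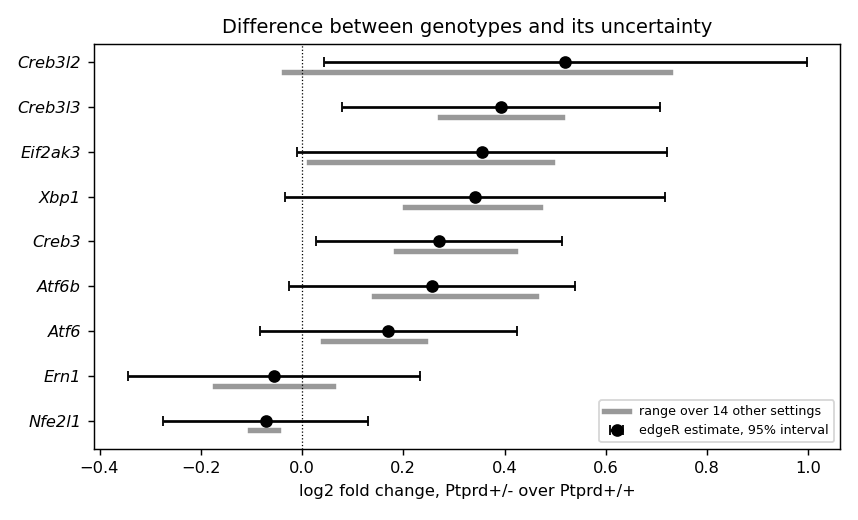
Log2 fold change of Ptprd+/- over Ptprd+/+ for each member, with dots for the edgeR estimate and black lines for its 95% interval; grey bars span the estimates of the 14 other settings. Intervals of Creb3l2, Creb3l3 and Creb3 lie above 0, and the grey bar of Creb3l2 reaches -0.035 where Het 2 and Het 3 were left out.

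Read by library, the members showed more than 1 pattern, a grouping made after the values were seen. Relative to the WT mean on the log2 CPM scale, Creb3l3 stood at 0.52, 0.37 and 0.32 in Het 1, Het 2 and Het 3. Creb3 stood at 0.42, 0.20 and 0.19, and Atf6b at 0.46, 0.16 and 0.14. These 3 genes were thus highest in Het 1, where Dbp (13.5 CPM) was just below and Arntl (21.4 CPM) just above the WT range. Creb3l2 stood at -0.03, 0.67 and 0.80, and Eif2ak3 at 0.01, 0.37 and 0.62. Atf6 had the same order with smaller values of 0.04, 0.19 and 0.28. So these were near the WT mean in Het 1 and higher in Het 2 and Het 3, the libraries that the clock genes set apart. With a clock score as a covariate, edgeR gave log2 fold changes of 0.45 for Creb3l3, 0.36 for Creb3 and 0.36 for Atf6b, and of 0.21 for Creb3l2, 0.15 for Eif2ak3 and 0.12 for Atf6. The score is highest in Het 2 and Het 3, so the grouping by library fixes this split, and it supports nothing further. None of the 9 had an adjusted p under 0.271 in that fit, in which genotype and clock state cannot be told apart in full.

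**Figure D3:**
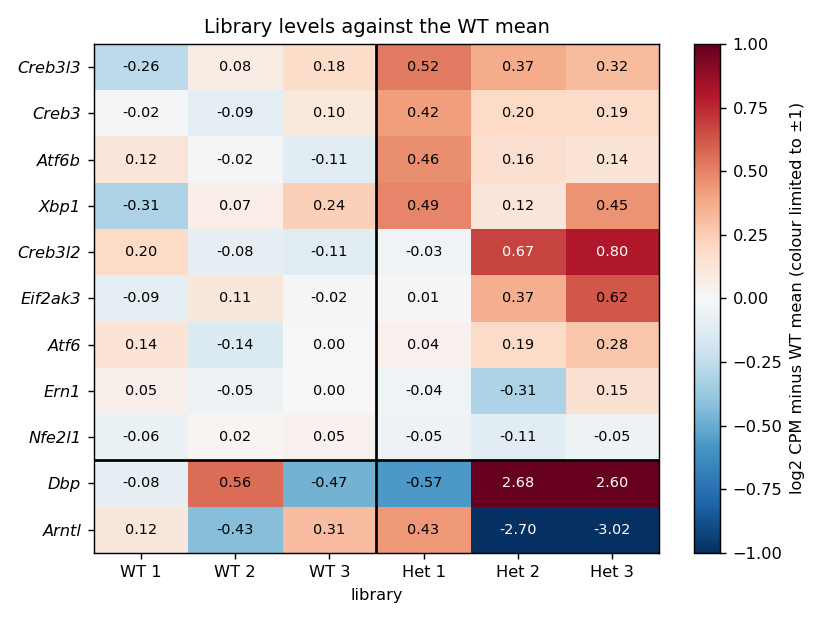
Log2 CPM of each gene minus its WT mean (cell numbers and colour, colour limited to 1 either way) in the 6 libraries, members above the black line and the clock genes Dbp and Arntl below it. The row of Creb3l2 is high in Het 2 (0.67) and Het 3 (0.80) and near 0 in Het 1, while Creb3l3, Creb3 and Atf6b are highest in Het 1.

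The promoters of the 5 genes that carry these patterns are shown so that their sequences can be set against them. RefSeq windows on GRCm38.p6, the build of the counts (mm10), run from 250 bases before to 50 after a start site. They were found for 8 members, 13 windows in all, and Atf6 had no entry. Each line gives the 250 bases before the start, 5′ to 3′ on the gene's strand, with any match on either strand to the motifs below in capitals.
Creb3l3 (chr10:81098873-81099122, minus strand): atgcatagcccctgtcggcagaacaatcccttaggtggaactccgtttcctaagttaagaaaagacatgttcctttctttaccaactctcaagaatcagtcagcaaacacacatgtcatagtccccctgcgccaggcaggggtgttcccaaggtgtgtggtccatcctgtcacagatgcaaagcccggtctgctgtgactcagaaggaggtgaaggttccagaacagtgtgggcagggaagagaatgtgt
Creb3 (chr4:43562408-43562657, plus strand): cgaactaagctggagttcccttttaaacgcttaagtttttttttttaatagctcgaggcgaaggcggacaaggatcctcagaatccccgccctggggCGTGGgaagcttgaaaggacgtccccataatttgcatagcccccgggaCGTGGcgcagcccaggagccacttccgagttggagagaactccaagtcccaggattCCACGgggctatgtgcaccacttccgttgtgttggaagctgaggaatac
Atf6b (chr17:34646896-34647145, plus strand): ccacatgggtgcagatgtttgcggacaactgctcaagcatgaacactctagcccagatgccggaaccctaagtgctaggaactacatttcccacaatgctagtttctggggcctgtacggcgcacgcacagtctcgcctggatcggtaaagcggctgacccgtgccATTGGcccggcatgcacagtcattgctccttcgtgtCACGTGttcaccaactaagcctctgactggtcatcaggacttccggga
Creb3l2 (chr6:37442149-37442398, minus strand): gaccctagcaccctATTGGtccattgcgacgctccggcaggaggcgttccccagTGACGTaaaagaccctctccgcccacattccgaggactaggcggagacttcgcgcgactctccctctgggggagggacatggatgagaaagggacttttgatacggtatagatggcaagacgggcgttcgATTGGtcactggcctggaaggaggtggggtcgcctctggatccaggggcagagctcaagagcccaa
Eif2ak3 (chr6:70844265-70844514, plus strand): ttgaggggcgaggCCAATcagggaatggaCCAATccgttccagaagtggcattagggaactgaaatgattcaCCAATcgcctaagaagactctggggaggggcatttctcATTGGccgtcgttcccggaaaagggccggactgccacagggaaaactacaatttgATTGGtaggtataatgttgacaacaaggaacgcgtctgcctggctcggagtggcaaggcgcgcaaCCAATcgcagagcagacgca

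The motifs searched were the ER stress response element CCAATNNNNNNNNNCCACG, bound by ATF6, the core TGACGTGG of the unfolded protein response element, bound by XBP1 and ATF6, and the core ACGTCA of the cyclic AMP response element. To these were added the E-box CACGTG, bound by clock activators, the D-box TTATGTAA, bound by DBP, and the short parts CCACG and CCAAT, which can lie within the longer ones. The whole ER stress response element was in 0 of the 13 member windows and in 0.119% of all 32851 windows of that length. The D-box was in 0 of 13 and in 0.938% of all. The unfolded protein response core was in 1 member window, of Nfe2l1 (0.676% of all), and the E-box in 1, of Atf6b (7.15% of all). The ACGTCA core was in 2, of Creb3l2 and Nfe2l1 (7.51% of all). CCACG was in 7 of 13 windows (32.8% of all) and CCAAT in 8 of 13 (37.4% of all), and windows of Nfe2l1 overlap each other. Among the promoters shown, Creb3 held CCACG on either strand and Eif2ak3 held CCAAT repeatedly, while the Creb3l3 window shown, at the outer start of the gene, held none of the motifs. A second Creb3l3 window, at an inner start (chr10:81092542-81092841), held CCACG and CCAAT. A match is only a match of letters, and its absence concerns this window alone.

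The genes that the sensors control were then read from lists made for each arm. The list of ATF6 targets had the highest median, but the lists were chosen with earlier results of these data known. XBP1 and ATF6 can bind a shared element, so the order of the lists does not tell these arms apart. Of 14 tested targets other than Xbp1 all 14 were higher in Het, 12 had an unadjusted p under 0.05 by edgeR and 12 had Het libraries above all WT libraries, and the median log2 fold change was 0.61. EdgeR passed 0 of them at an adjusted p of 0.05 and DESeq2 called 8. Of all tested genes 3.39% were higher at an unadjusted p under 0.05, and 7.15% had Het libraries above all WT libraries. DESeq2 called 0.452% of all tested genes. Manf, a secreted ER stress protein, and Hyou1, an ER chaperone of the HSP70 kind, had the smallest p, with log2 fold changes of 1.28 (SE 0.15) and 1.17 (SE 0.18). Of 28 tested XBP1 targets, which serve translocation, folding and ER-associated degradation, 21 were higher (median 0.14), 8 had an unadjusted p under 0.05, all higher, and DESeq2 called 0. Arfgap3, a GTPase activator of the early secretory pathway, had 6.37 ± 0.808 CPM in WT livers and 9.43 ± 1.37 CPM in Het livers (SD, n = 3). Srp54a, a signal recognition particle gene with near-identical copies, had 0.665 ± 0.0428 and 1.19 ± 0.154 CPM, so its level is uncertain.

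The PERK side showed a few high genes rather than a shift of the list. Of 16 tested genes in the list of PERK, ATF4 and CHOP targets 9 were higher and 7 lower, with a median log2 fold change of 0.03. Trib3, a pseudokinase gene, had 1.55 ± 0.244 CPM in WT livers and 3.51 ± 1.102 CPM in Het livers. It was the 1 gene of the list that DESeq2 called, against 0.452% of all tested genes, and its adjusted p by edgeR was 0.577. Its log2 fold change of 1.17 was 0.60 without Het 2 and Het 3. Ddit3, which encodes CHOP, had 5.29 ± 0.169 and 9.32 ± 3.64 CPM, with an adjusted p of 0.685 by edgeR. The log2 fold change of Ddit3 was 0.82, and 0.49 without Het 3. In the list on eIF2 alpha control the median of 16 genes was 0.03. At an unadjusted p under 0.05 there was 1 gene (6.25% of the list, against 7.15% of all tested genes). That gene, Ppp1r15b, encodes the constitutive subunit of the eIF2 alpha phosphatase and had 124 ± 3.21 CPM in WT livers and 101.3 ± 12.8 CPM in Het livers, with a log2 fold change of -0.29 (SE 0.11). Eif2b5, a subunit of the exchange factor that eIF2 alpha phosphorylation inhibits, had 40.3 ± 3.73 and 46.8 ± 3.75 CPM.

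The genes that process or partner the sensors were read by arm, in lists that share some genes and were not tested against each other. Among 10 genes that process or hold ATF6, 8 were higher (median log2 fold change 0.20) and 4 had an unadjusted p under 0.05. These 4 were all higher, against 3.39% of all tested genes. Hspa5 and Pdia6, a disulfide isomerase gene, led that list and also stand among the ATF6 targets. Of 13 tested genes of the IRE1 and XBP1 machinery 9 were higher with a median of 0.07, led by Pdia6 and by Sec61a1, the channel subunit of the translocon, at 165 ± 0.762 against 200.5 ± 18.01 CPM. Of 7 listed partners and relatives of the CREB3 family 4 were tested and 3 were lower, with a median log2 fold change of -0.07. At an unadjusted p under 0.05 by edgeR there were 0. Mbtps2, which encodes the site-2 protease that frees ATF6 and CREB3 factors, had 7.63 ± 0.443 CPM in WT livers and 6.01 ± 0.992 CPM in Het livers, apart between groups with an unadjusted p of 0.0590 by edgeR. The family member Creb3l1 was at 0.998 ± 0.0202 and 0.923 ± 0.298 CPM, and its log2 fold change of -0.13 became 0.03 without Het 2.

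Downstream of single members, the CREB3L3 list had mixed signs and the NFE2L1 list had mostly higher genes. Of 15 CREB3L3 targets 8 were higher and 7 lower, with a median log2 fold change of 0.01. Bdh1, a ketone body enzyme, had 289 ± 39.7 CPM in WT livers and 389 ± 32.7 CPM in Het livers, and G6pc, glucose-6-phosphatase, had 509 ± 52.5 and 320.2 ± 105.2 CPM. Their log2 fold changes were 0.43 and -0.67, with adjusted p of 0.677 and 0.685 by edgeR. Without Het 2 and Het 3 the log2 fold changes were 0.29 and -0.25. Of the 8 transcripts known to be cut by IRE1 itself 6 were lower, with a median of -0.02. Bloc1s1, the best known of them, had 0.639 ± 0.156 CPM in WT livers and 1.49 ± 0.330 CPM in Het livers, a low level. Of 32 proteasome genes, the targets of NFE2L1, 31 were higher by small amounts, with a median of 0.14. Of these genes 12 had Het libraries above all WT libraries and 4 had an unadjusted p under 0.05, all higher. The shares of all tested genes were 7.15% and 3.39%. Psma3 and Psmc4 led with log2 fold changes of 0.48 (SE 0.12) and 0.31 (SE 0.11). Het 1 was the highest library for both (19.8 and 104.6 CPM). The 32 genes encode parts of 1 complex and cannot be counted as independent. Of 11 genes that process or partner NFE2L1 7 were higher, with a median of 0.09. Syvn1, the ubiquitin ligase of ER-associated degradation also called HRD1, had 51.1 ± 3.03 against 106 ± 33.5 CPM. Its Het libraries were uneven, with 102, 74.8 and 141 CPM in Het 1, Het 2 and Het 3. It was the 1 gene of that list called by DESeq2 (adjusted p 7.74e-04), which called 0.452% of all tested genes. The adjusted p of Syvn1 by edgeR was 0.514. Ngly1, the enzyme that removes sugars from NFE2L1, had 41.6 ± 0.335 and 37.3 ± 1.40 CPM.

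**Figure D4:**
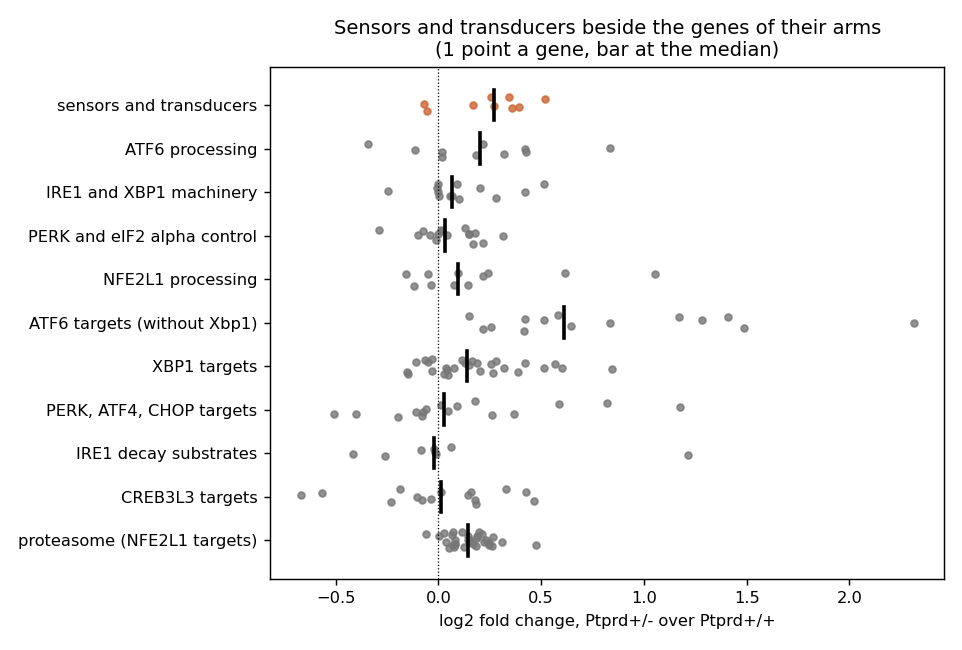
Log2 fold change of Ptprd+/- over Ptprd+/+ for each tested gene (1 point a gene, spread vertically for sight) of the sensors and of the lists of their arms, with a black bar at each list's median. The bar of the ATF6 targets lies at 0.61, that of the sensors at 0.27 and those of the PERK and CREB3L3 targets near 0.

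How far the sensors kept step with BiP was taken from the log2 ratio of Hspa5 to each member within a library. Hspa5 had 642 ± 56.2 CPM in WT livers and 1143 ± 186 CPM in Het livers. The ratio was higher in Het on average for all 9 members. For Ern1 it was 3.54, 3.39 and 3.44 in WT and 4.32, 4.36 and 4.37 in Het, a difference of 0.89, and for Nfe2l1 the difference was likewise 0.895. For Atf6 it was 3.08, 3.11 and 3.07 in WT and 3.86, 3.49 and 3.87 in Het, a difference of 0.65. These groups lay far apart beside their spread. For Atf6b and Creb3 the differences were 0.57 and 0.55, also with no overlap. For Eif2ak3, Xbp1, Creb3l3 and Creb3l2 the groups overlapped, with differences of 0.49, 0.47, 0.42 and 0.34. A two-sided exact permutation test over the 20 assignments of 3 against 3 libraries gave p = 0.1 for the 5 members without overlap, the smallest this design allows, and 0.18 after Benjamini-Hochberg adjustment over the 9. For the other 4 the exact p was 0.2 to 0.4. Hspa5 was known from earlier results to be higher in Het. Its log2 fold change of 0.83 was above that of every member (0.52 at most). Its choice thus fixed a higher mean ratio for all 9 members and much of the size of these differences. The permutation p-values are therefore no evidence on the sensors themselves.

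**Figure D5:**
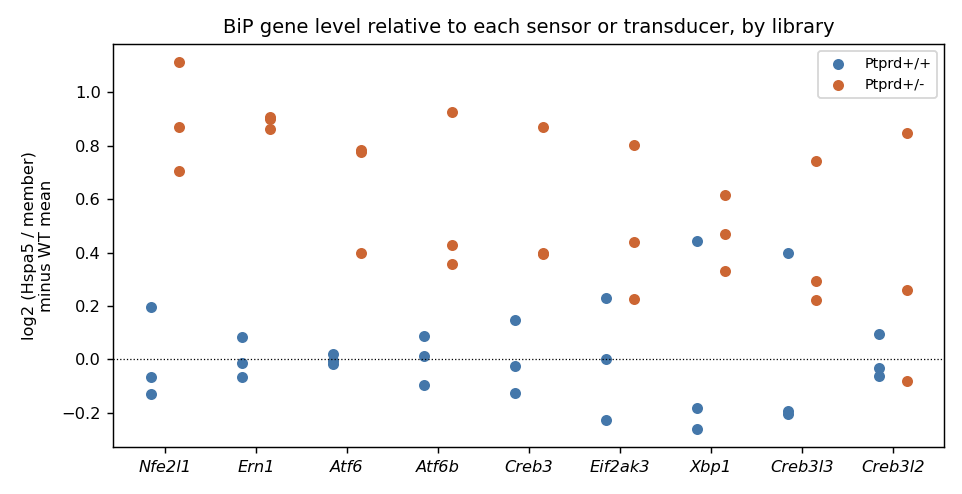
Log2 ratio of Hspa5 to each member in each library, minus the WT mean of that ratio (3 points per genotype, some of them overlaid). Het points lie above all WT points for Nfe2l1, Ern1, Atf6, Atf6b and Creb3, and the genotypes overlap for Eif2ak3, Xbp1, Creb3l3 and Creb3l2.

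The authors' deposited table of differential expression, turned to Het over WT, had the same sign for all 9 members as the fit here. In the authors' deposited table the adjusted p of the members ranged from 0.433 for Creb3l3 to 0.983 for Ern1.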

How the data were processed

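RNA from 3 WT and 3 Het livers was analysed from the deposited count table, with samples grouped by their titles. The build was mm10, and STAR 2.5.3a, HTSeq 0.6.1p1, cutadapt 1.10, DESeq2 1.16.1 and bcl2fastq 2.17.1.14 are the tools listed, per the submitters' processing notes. The sources used here name no annotation release or strand setting. The raw columns hold whole read counts per gene, per the file headers. The normalized columns were not used, since their decimal marks are altered. The authors' deposited comparison table gives log2 fold changes, p-values and adjusted p-values.

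Genes were filtered with filterByExpr (14606 of 25904 kept) and scaled by TMM. Het was compared with WT by edgeR 4.0.16 in R 4.3.3 (quasi-likelihood test, two-sided, genotype only, Benjamini-Hochberg over all tested genes, threshold 0.05). Standard errors and 95% intervals come from its F statistic. CPM use effective library sizes, and log2 CPM a prior count of 2. Merged exon lengths are from GENCODE M21 (GRCm38). The labels give 3 samples per genotype but do not say that each is a separate mouse, so p-values measure the spread between these samples. Alternatives were DESeq2 1.42.0, limma-voom (limma 3.58.1), RLE scaling, other filters, the replicate number as a block, a clock score (mean log2 CPM of Dbp, Per2, Per3 and Nr1d2 minus that of Arntl, Npas2 and Clock) and leaving libraries out. The tests were tried on simulated counts. Members and gene lists were chosen with earlier results of these data known. Named are the 9 members, the 2 genes of smallest p in each of 11 pathway lists, Ptprd, Dbp, Arntl, Hspa5, and the 3 genes most like each of the 3 members of smallest p. Of the genes this rule takes, 1 is left out of the text. Tln1 and Gba2 were named for their overlap with Creb3. Of 7 marker lists, those for Kupffer, sinusoidal endothelial, stellate, cholangiocyte and exocrine pancreas cells had overlapping summed levels between genotypes.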

Additional observations from a re-analysis of the deposited data

How the results depend on the processing

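Over 14 alternatives per member, 0 of the 9 members passed an adjusted p of 0.05 in any, the smallest being 0.265, and 7 kept the sign of the reported fit in all. The exceptions were Ern1 (0.06 without Het 2) and Creb3l2 (-0.035 without Het 2 and Het 3), neither past the threshold. The number of all genes called was 0 in the reported fit, 66 with DESeq2, 73 with no filter on low counts, and 0 to 1 when single libraries were left out, the 1 being Manf without Het 2. Members at an unadjusted p under 0.05 numbered 3 in the reported fit, 5 with no filter on low counts, and 1 to 3 when single libraries were left out. With the replicate number as a block 0 genes were called and 4 members had an unadjusted p under 0.05. In the reported edgeR fit 7.15% of all tested genes had an unadjusted p under 0.05. That share was not taken in the other settings, so their member counts have no background to be read against. Libraries of equal number did not all deviate together (correlations over genes of -0.07, 0.12 and 0.15). With 3 libraries a genotype this cannot tell whether they share more than a number. Without Het 2 and Het 3 the lone Het library is assumed to vary like the others. With 3 libraries a genotype, intervals reached up to 1.995-fold (Creb3l2).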

Other observations

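For the 3 members of smallest p, the genes whose log2 CPM followed theirs most closely over the 6 libraries were taken from 11222 protein-coding genes with a mean of at least 1 CPM. Creb3l3 was followed by Urm1, Gcgr and Lad1 (Pearson r of 0.991, 0.989 and 0.988). Gcgr, the glucagon receptor gene, had a mean of 240.4 CPM in WT and 292 CPM in Het. Creb3 was followed by Smpd1, Phkg2 and Snrpd2 (0.997, 0.996 and 0.995), of which Smpd1 encodes the lysosomal acid sphingomyelinase and Phkg2 the liver subunit of phosphorylase kinase. Creb3l2 was followed by Map3k21, Mroh6 and Mthfd1l (0.984, 0.982 and 0.973). With 6 libraries such values are common, since 191 genes had an r over 0.9 with Creb3l3, 379 with Creb3 and 66 with Creb3l2. They are a description of these libraries with no test.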
